A study of Mus musculus with 9 samples.

Results

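RLTR13 elements are long terminal repeats (LTRs) of mouse endogenous retroviruses of the ERVK group. Of the 623916 transposable element copies in the deposited count table, 1762 carried a repeat name starting with RLTR13 and form the set described here, under 23 of the 1034 repeat names of the table. The libraries came from C57BL/6 mouse embryonic stem cells (ESCs) at early passage, grown on feeder cells that were removed before RNA extraction: 3 G4 Terc-/- libraries, 3 G1 Terc-/- libraries and 3 wild-type (WT) libraries. Both mutant groups lack Terc, the RNA template of telomerase. G1 Terc-/- ESCs came from matings of heterozygous mice, and G4 Terc-/- ESCs from matings of Terc-/- mice of the preceding generation, so that the 2 groups differ in the number of generations spent without telomerase. Generation, cell line and time in culture cannot be told apart in this design, and nothing in the sources says that libraries of a group came from separate lines or cultures, so a p-value here refers only to how these libraries spread, and that spread may be technical.

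An LTR is the repeated end of a retrovirus-like element, and it carries the promoter and the polyadenylation signal that the element uses for its own transcription. Most LTRs of old elements stand alone, since recombination between the LTRs of one element removes the coding part between them, and in mouse ESCs many ERVK elements are kept silent by H3K9 methylation and DNA methylation. Within the RLTR13 group, RLTR13D5 and RLTR13B4 are known as enhancers in mouse trophoblast stem cells and RLTR13D6 as an enhancer in mouse ESCs, whereas RLTR13G is annotated inside early transposon (ETn) and MusD elements, a young and mobile ERVK group of the mouse.

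The genomic sequence of a copy could be read where the copy lay within an exon of an annotated transcript, which was so for 29 copies of 14 names. The 3 RLTR13G copies among them are shown because they are short and alike, and because the name RLTR13G held most of the RLTR13 RNA. They are given 5′ to 3′ in the direction of the repeat, from transcripts of GENCODE M21 on the mm10 assembly, and the capitals mark the 16-base run that all 3 have in common:
RLTR13G chr1:89097185-89097380, minus strand, in exon 1 of Gm38312: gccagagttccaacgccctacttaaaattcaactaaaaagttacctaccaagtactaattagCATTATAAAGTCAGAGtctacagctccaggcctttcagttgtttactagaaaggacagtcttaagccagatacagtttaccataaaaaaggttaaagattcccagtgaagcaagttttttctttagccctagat
RLTR13G chr13:62336705-62336910, minus strand, in exon 2 of Gm19792: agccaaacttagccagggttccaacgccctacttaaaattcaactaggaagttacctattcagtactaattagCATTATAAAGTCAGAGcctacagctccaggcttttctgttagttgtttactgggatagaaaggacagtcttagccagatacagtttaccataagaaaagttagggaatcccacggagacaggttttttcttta
RLTR13G chr15:39132554-39132749, minus strand, in exon 1 of Dcaf13: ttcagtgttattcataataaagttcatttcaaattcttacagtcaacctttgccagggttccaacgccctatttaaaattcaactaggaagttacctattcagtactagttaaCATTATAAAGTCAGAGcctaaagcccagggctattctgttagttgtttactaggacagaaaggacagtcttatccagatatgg
Between pairs of these 3 copies, 82.6% to 91.6% of 144 to 196 aligned bases were the same, and the longest run shared by a pair was 16 to 36 bases. No run longer than 15 bases was shared between an RLTR13G copy and any of the 26 sequences with another RLTR13 name.

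As an example of the longer RLTR13 elements, the first 300 bases of an RLTR13C2 copy in exon 2 of Zfp951, a zinc finger gene, are shown because this copy rose in G4 Terc-/- ESCs, as given with its values further on, and the whole copy is 437 bp long. The capitals mark the 38-base run that it shares with another RLTR13C2 copy at chr6:124383030-124383850:
RLTR13C2 chr5:104836493-104836929, plus strand: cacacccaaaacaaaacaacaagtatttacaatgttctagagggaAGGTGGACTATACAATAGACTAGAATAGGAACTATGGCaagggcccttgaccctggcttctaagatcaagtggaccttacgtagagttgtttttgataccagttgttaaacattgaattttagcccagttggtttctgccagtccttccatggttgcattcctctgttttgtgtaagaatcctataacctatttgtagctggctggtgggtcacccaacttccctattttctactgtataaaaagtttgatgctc
RLTR13G copies had a median length of 236 bp, against 846 bp for the other RLTR13 copies, with a range of 75 to 1136 bp over all.

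Most RLTR13 copies were hardly read. Of the 1762 copies, 1198 had fewer than 5 estimated counts over the 9 libraries together and 564 had 5 or more, and 94 passed the filter for the test (42 RLTR13G copies and 52 others). These 94 copies held 82.4% of all RLTR13 counts, and the 10 largest, of which 9 were RLTR13G, held 47.9%. The deposited values are estimated counts, and many copies hold values that are not whole, so counts had been divided among copies by a rule that is not given in the sources used here. All values were whole for 68.5% of the RLTR13 copies, against 91.2% of all copies, but these RLTR13 copies held only 22.9% of the RLTR13 counts. The share was lowest for RLTR13G, with 120 of 253 copies whole-valued, against 1087 of the other 1509. Most RLTR13G counts thus lay in copies with divided counts, for which the value of a single copy depends on that division.

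Library totals over the whole table ranged from 918879 to 1137257 counts, and 0 copies lay in Terc, which leaves the deleted gene without a reading of its own. Marker genes were read only through repeats in their exons. The pluripotency list (5 of 10 genes read, without Pou5f1, Sox2, Klf4, Dppa5a and Utf1) summed to 22896 to 26899 CPM in G4 Terc-/- libraries, 10500 to 11223 in G1 and 6673 to 7223 in WT. Tdgf1 alone held most of it (17084 CPM in G4, 6490 in G1 and 4312 in WT). Nanog, Tfcp2l1 and Esrrb were also highest in G4, while Zfp42 differed little (5.98, 4.27 and 5.51 CPM). The primitive endoderm list (6 of 10 read, without Gata6, Sox17, Lama1 and Col4a1) summed to 136 to 175 CPM in G4 libraries, 1850 to 1993 in G1 and 4201 to 4368 in WT. Most of that sum was Col4a2 (88.9 CPM in G4, 1545 in G1 and 3482 in WT) and Gata4 (19.5, 333 and 743 CPM), while Sparc went the other way (45.3, 14.7 and 10.8 CPM). The feeder fibroblast list (4 of 10 read) summed to 115 to 117, 74.8 to 94.9 and 38.6 to 61.4 CPM in G4, G1 and WT libraries, the 2-cell-like list (3 of 10) to 12.6 to 26.5, 0 to 1.04 and 0 to 2.09 CPM, and the trophoblast list (3 of 10) to 34.1 to 58.5, 46.1 to 58.3 and 45.1 to 52.2 CPM. The pluripotency, primitive endoderm, feeder and 2-cell-like lists did not overlap between G4 and WT libraries. Any difference between G4 and WT below goes along with theirs, and their part in these results was not tested. In the pluripotency, primitive endoderm and feeder lists the G1 libraries lay between G4 and WT. In bulk samples, fewer cells of a type and less RNA per cell cannot be told apart.

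Summed over all 1762 copies, RLTR13 RNA was lowest in G4 Terc-/- ESCs and highest in G1 Terc-/- ESCs. The sum was 5153, 5071 and 5150 CPM (counts per 1000000 counts of the table, TMM scaled) in the 3 G4 libraries, 7313, 7323 and 6995 CPM in the G1 libraries and 6050, 5582 and 5917 CPM in the WT libraries, so the 3 groups did not overlap. RLTR13G made up 61.0% of these counts and accounted for the order: it summed to 2552 ± 105 CPM in G4, 4955 ± 128 CPM in G1 and 3607 ± 213 CPM in WT (SD, n = 3 each). The other RLTR13 copies together summed to 2572 ± 137, 2255 ± 109 and 2243 ± 43.3 CPM in the same groups. In those other copies it was thus G4 that stood highest, with no overlap with the G1 or WT libraries. These sums are a description and were not tested.

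**Figure D1:**
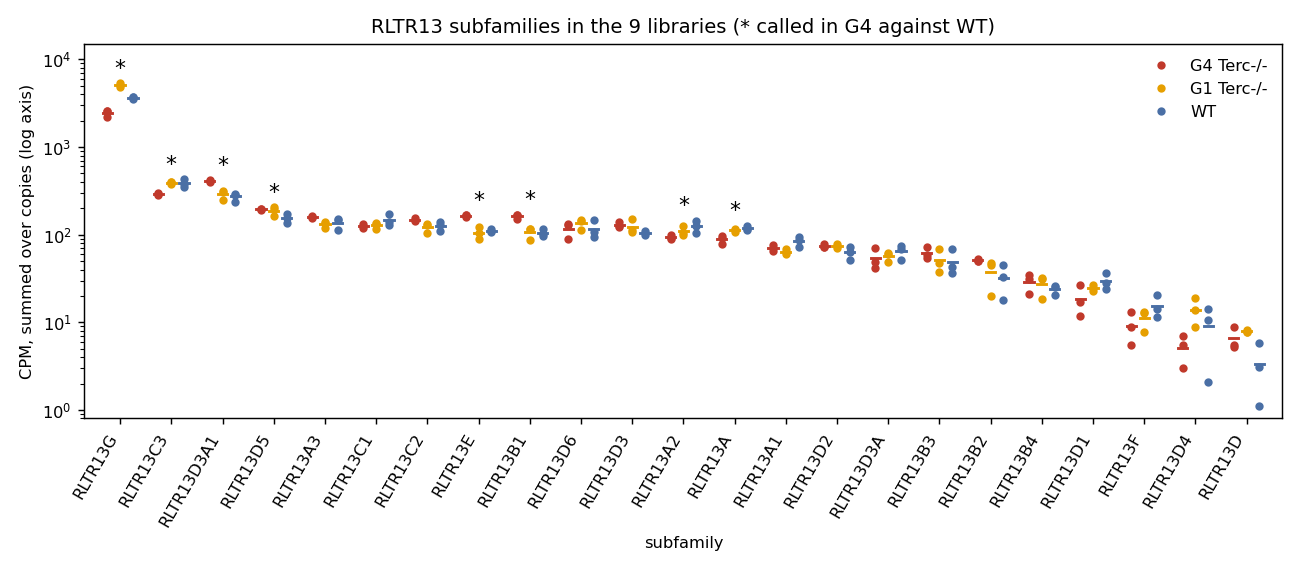
CPM of each RLTR13 subfamily, summed over its copies, on a log axis, with 1 point per library, a line at the group mean and an asterisk for names called in G4 Terc-/- against WT. RLTR13G stands above every other name, with G4 libraries at 2202 to 2607 CPM, G1 at 4850 to 5341 and WT at 3546 to 3742.

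When the copies of a name were added up and tested as a subfamily, 22 of the 23 names passed the filter (RLTR13D did not). In G4 Terc-/- against WT, 4 names rose and 4 fell, at 23.1% of all 853 tested subfamilies called higher in G4 and 23.4% called lower. RLTR13B1, RLTR13D3A1, RLTR13E and RLTR13D5 rose, and RLTR13G, RLTR13A2, RLTR13A and RLTR13C3 fell. The RLTR13 names thus moved in both directions, 4 of 22 each way. With library totals in place of TMM scaling, which moves the median of all tested subfamilies by 0.13 on the log2 scale in this comparison, 8 names were higher and 2 lower in G4, and the falls of RLTR13A and RLTR13A2 missed the threshold.

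RLTR13B1 had 169, 152 and 167 CPM in G4 libraries, 116, 88.1 and 116 CPM in G1 and 95.5, 103 and 115 CPM in WT. It was higher in every G4 library than in any other, with a log2 fold change against WT of 0.63 ± 0.13 (SE, adjusted p = 0.00033, edgeR quasi-likelihood test with Benjamini-Hochberg adjustment, as for every adjusted p below). RLTR13D3A1 (407 ± 8.31 CPM in G4 against 273 ± 30.2 in WT, log2 fold change 0.58 ± 0.10) and RLTR13E (164 ± 5.17 against 111 ± 4.62 CPM, 0.56 ± 0.12) behaved alike, and all 3 names were also higher in G4 than in G1 (log2 fold changes 0.62, 0.48 and 0.64). With whole-valued copies alone the rise against WT was kept by RLTR13E (0.53, adjusted p = 0.0013), while RLTR13B1 had 0.33 (adjusted p = 0.055, 97 of 113 copies whole-valued) and RLTR13D3A1 0.05 (adjusted p = 0.72, 143 of 156 copies), so neither was called. RLTR13D5, the name with trophoblast enhancer activity, rose less. It had 196 ± 2.26 CPM in G4, 188 ± 21 CPM in G1 and 155 ± 17.9 CPM in WT, with a log2 fold change of 0.33 ± 0.11 against WT (adjusted p = 0.018) and 0.05 ± 0.11 against G1 (adjusted p = 0.75). The call against WT was lost without WT library 2 (adjusted p = 0.092). RLTR13B4, the other such name, had 29.1 ± 7.29 CPM in G4 and 24.0 ± 2.81 CPM in WT (log2 fold change 0.27 ± 0.27, adjusted p = 0.44), and RLTR13D6, the ESC enhancer, 117 ± 24.5 and 116 ± 27.3 CPM (0.02 ± 0.17, adjusted p = 0.93).

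Among the names that fell, RLTR13G had 2202, 2607 and 2545 CPM in G4 libraries, 5341, 5089 and 4850 CPM in G1 and 3742, 3546 and 3693 CPM in WT at this level. The 3 groups were separate. The log2 fold change was -0.58 ± 0.05 in G4 against WT (adjusted p = 2.3e-08), 0.48 ± 0.05 in G1 against WT (adjusted p = 1.9e-06) and -1.05 ± 0.05 in G4 against G1 (adjusted p = 1.6e-12). RLTR13C3 fell to 291 ± 9.01 CPM in G4, against 394 ± 13.1 CPM in G1 and 385 ± 38.7 CPM in WT, but 92.2% of its counts lay in a single copy. RLTR13A (88.4 ± 8.88 CPM in G4 against 118 ± 7.75 CPM in WT, 76.5% of counts in 1 copy) and RLTR13A2 (93.8 ± 5.65 against 125 ± 19.5 CPM) fell by 0.41 and 0.43 on the log2 scale. The call of RLTR13A2 was lost without WT library 3 (adjusted p = 0.12) or G4 library 3 (adjusted p = 0.056). With whole-valued copies alone RLTR13A2 had a log2 fold change of -0.92 (adjusted p = 0.0015) and RLTR13A one of -0.10 (adjusted p = 0.84, 17 of 58 copies whole-valued).

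In G1 Terc-/- against WT, RLTR13G was the only RLTR13 name called, as a rise, at 5.51% of all subfamilies called higher in G1 and 6.33% lower. In G4 against G1, RLTR13B1, RLTR13D3A1 and RLTR13E rose and RLTR13G, RLTR13C3, RLTR13A and RLTR13D4 fell, at 19.5% of all subfamilies called higher in G4 and 23% lower. RLTR13D4, a rare name of 16 copies of which none passed the filter singly, had 2.99, 5.46 and 7.02 CPM in G4 libraries and 8.76, 13.7 and 18.8 CPM in G1 libraries (log2 fold change -1.37 ± 0.53, adjusted p = 0.042).

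The direction for RLTR13G depended on which of its copies were counted. The 120 whole-valued copies held 824 counts in all, with 137, 107 and 95.3 CPM in G4 libraries, 86.6, 107 and 88.0 CPM in G1 and 55.2, 71.0 and 68.2 CPM in WT. Fitted with whole-valued copies alone, the RLTR13G subfamily rose by 0.70 on the log2 scale in G4 against WT (adjusted p = 0.00096) and by 0.56 in G1 against WT (adjusted p = 0.029), with 0.15 in G4 against G1 (adjusted p = 0.47). The other 133 copies held 32691 counts. The fall in G4 was carried by those, and how reads were divided among them is not given in the sources used here.

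A pair of copies also made up most of that fall. The mean RLTR13G sum in G4 minus that in WT was -1055 CPM, of which -949 CPM came from 2 copies, at chr16:25522639-25522866 and chr4:124353468-124353695. The remaining 251 copies summed to 2347 ± 98.9 CPM in G4, 3604 ± 112 CPM in G1 and 2452 ± 187 CPM in WT. Without the 2 copies, chosen here for their size, the G4 range of 2232 to 2405 CPM overlapped the WT range of 2236 to 2565 CPM, whereas the G1 range of 3504 to 3725 CPM lay above both.

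RLTR13G was also set apart by what lies beside it. On the same strand within 250 bp, 200 of the 253 RLTR13G copies (79.1%) had a piece of an ETn or MusD element, and these 200 copies held 98.6% of the RLTR13G counts. On the opposite strand 0 copies had an ETn internal or 3′ LTR piece. On the 5′ side, 178 copies had an internal piece (MMETn-int or ETnERV-int) at a median gap of 141 bp. An ERVB4_1C-LTR_Mm piece stood at 134 copies, at a median gap of 24 bp. It lay between an internal piece and RLTR13G in many copies, but in others an internal piece adjoined RLTR13G. At -50 bp from the 5′ end, 42 copies (16.6%) had an internal piece and 78 (30.8%) an ERVB4_1C-LTR_Mm piece. On the 3′ side, 125 copies had an internal piece at a gap of 0 bp and 144 had an LTR (RLTRETN_Mm or ERVB7_1-LTR_MM) at a median gap of 89 bp, with quartiles of 88 and 95 bp. RLTR13G was thus annotated at a fixed place in these elements, just before the 3′ LTR. Few copies of the other RLTR13 names had these same pieces beside them, a count that leaves out internal parts named ETnERV2-int and ETnERV3-int. RLTR13E had one at 17 of 122 copies, among them 16 with ERVB4_1C-LTR_Mm on the 5′ side and 6 with both an internal piece and a 3′ LTR, and 3 further names (RLTR13A1, RLTR13A2 and RLTR13D6) at 1 copy each. Other internal parts stood beside those names, with RLTR45-int at 23 of 113 RLTR13B1 copies and RMER16-int at 42 of 130 RLTR13C2 copies. ETnERV3-int stood at 14 of 58 RLTR13A, 22 of 65 RLTR13A2, 10 of 83 RLTR13B2 and 4 of 47 RLTR13B3 copies. ETnERV2-int stood at 3 of 115 RLTR13D6 copies. Parts with an ETnERV name were thus not particular to RLTR13G.

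**Figure D2:**
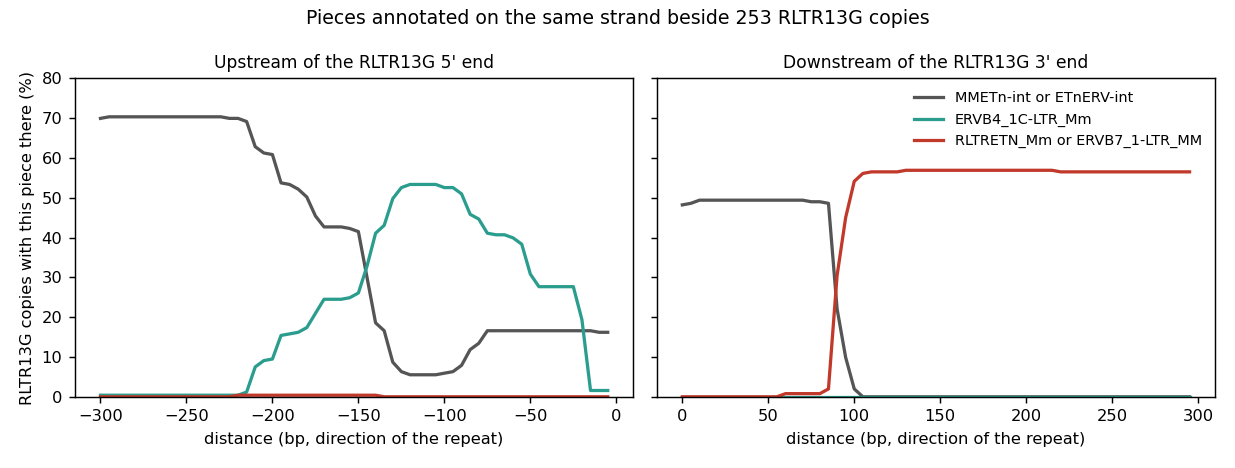
Share of the 253 RLTR13G copies with each kind of piece on the same strand, by distance in bp from the 5′ end (left) and from the 3′ end (right) of the copy. On the 5′ side the ERVB4_1C piece is most frequent at about -110 bp, with internal pieces farther out and, in 16.6% of copies, at -50 bp. On the 3′ side the LTR takes over from the internal piece at about 89 bp.

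Copies were then tested one by one. In G4 Terc-/- against WT, 20 of the 94 tested RLTR13 copies rose and 21 fell, which is 21.3% and 22.3%, at a background of 21.3% of all 13278 tested copies called higher in G4 and 21.3% called lower. The median log2 fold change was 0.04, against -0.02 for all tested copies. In this comparison the RLTR13 copies moved as often as copies in general. In G1 Terc-/- against WT, 13 rose and 1 fell (13.8% and 1.06%), at a background of 2.41% higher and 4.36% lower. In G4 against G1, 20 rose and 27 fell (21.3% and 28.7%), at a background of 19% higher and 19.2% lower. All 3 comparisons share groups and are not independent of each other.

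RLTR13G and the other names differed in these counts. Of the 42 tested RLTR13G copies, 10 rose and 13 fell in G4 against WT, 12 rose and 1 fell in G1 against WT, and 7 rose and 22 fell in G4 against G1, with median log2 fold changes of -0.18, 0.51 and -0.71. Of the 52 other copies, 10 rose and 8 fell in G4 against WT, 1 rose and 0 fell in G1 against WT, and 13 rose and 5 fell in G4 against G1, with medians of 0.12, 0.03 and -0.04. Only 2 of the 42 RLTR13G copies were whole-valued, against 33 of the 52 others. Neither of the 2 was called in G1 against WT. The RLTR13G calls in G1 against WT thus all lay in copies with divided counts, which may not be separate measurements. Among all 1667 tested ERVK copies, 29.5% rose and 28.9% fell in G4 against WT, 5.88% rose and 9.66% fell in G1 against WT, and 27.1% rose and 26.2% fell in G4 against G1. By name, the 5 tested copies of the trophoblast enhancers RLTR13D5 and RLTR13B4 gave 1 rise and 1 fall in G4 against WT, and the 3 tested RLTR13D6 copies gave 0 rises and 2 falls. The RLTR13A names gave 1 rise and 3 falls of 9, the RLTR13B names 2 rises of 8, the RLTR13C names 1 rise and 2 falls of 7, the RLTR13D names 5 rises and 3 falls of 23 and RLTR13E 1 rise of 5, and RLTR13F had no tested copy.

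**Figure D3:**
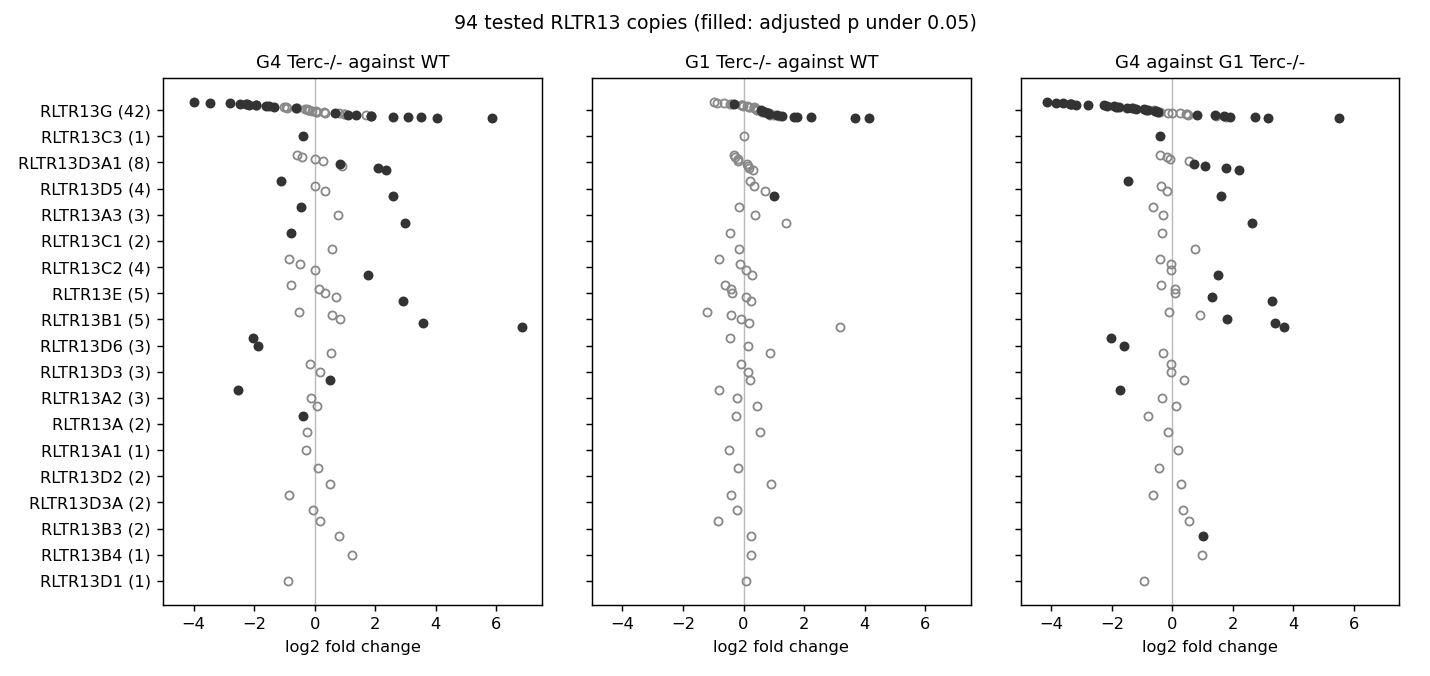
Log2 fold change of the 94 tested RLTR13 copies, 1 point per copy and 1 line per subfamily (number of tested copies in brackets), with filled points for copies at an adjusted p under 0.05. RLTR13G spreads widely to both sides in G4 Terc-/- against WT and lies mainly above 0 in G1 Terc-/- against WT, with 12 rises and 1 fall.

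RLTR13 copies lay outside genes more often than other repeats did. Of the 1762 copies, 89 (5.05%) were exonic, with at least 0.5 of their length in exons, 654 (37.1%) intronic, 347 (19.7%) within 5 kb of a gene and 672 (38.1%) farther away. For all LTR copies of the table these shares were 5.41%, 55.2%, 15.6% and 23.8%. Of the RLTR13G copies 51.0% lay more than 5 kb from a gene, against 36.0% of the other RLTR13 copies together. Where RLTR13 copies did lie in a gene, 28.9% of the 83 RLTR13G copies and 30% of the 660 others had the strand of the gene, against 33.6% of LTR copies in genes overall. Among tested copies, 2 of 15 exonic ones rose and 2 fell in G4 against WT, 6 of 35 intronic ones rose and 12 fell, 3 of 19 near a gene rose and 1 fell, and 9 of 25 far from genes rose and 6 fell. Over all tested copies, 20.5% of exonic ones rose and 21.8% fell, 19.5% and 17.7% of intronic ones, 27.1% and 21.7% of those near a gene and 25.2% and 30.4% of those far from genes.

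The largest rise of an RLTR13G copy in G4 was at chr6:127520317-127520560, with Parp11, an ADP-ribosyltransferase gene, as the nearest gene 26056 bp away. The copy had 33.4, 115 and 48.5 CPM in G4 libraries, 0, 3.45 and 0 CPM in G1 and 0, 0 and 3.27 CPM in WT. It was close to 0 outside G4, with 210 estimated counts in the 3 G4 libraries together against 3.41 in WT (fitted log2 fold change 5.87 ± 0.68, adjusted p = 1.2e-07). The pieces on its 5′ side rose with it, MMETn-int by 4.79 and ERVB4_1C-LTR_Mm by 4.24, while on its 3′ side MMETn-int fell by 2.51 and the RLTRETN_Mm LTR had a log2 fold change of 0.26 (adjusted p = 0.47). A second RLTR13G copy, at chr1:153078330-153078584 in an intron of Nmnat2, a gene of NAD synthesis, where the gene model Gm28960 overlaps, had 113, 94.2 and 89.4 CPM in G4 libraries, 23.4, 9.07 and 12.7 CPM in G1 and 5.58, 8.04 and 11.7 CPM in WT. The G4 libraries stood far above all others (log2 fold change 3.53 ± 0.29, adjusted p = 2.7e-10), and the pieces on both sides rose by 2.48 to 2.90. Of 6 other tested repeats of Nmnat2 more than 10 kb away, 4 rose and 0 fell.

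The RLTR13G copy at chr5:90925340-90925587, 438 bp from Gm42530, rose in both mutant groups. It had 24.1, 53.0 and 67.2 CPM in G4 libraries, 24.2, 36.2 and 22.0 CPM in G1 and 3.37, 11.1 and 9.37 CPM in WT. Every mutant library lay above every WT library, with log2 fold changes against WT of 2.57 ± 0.39 in G4 (adjusted p = 7.4e-06) and 1.76 ± 0.42 in G1 (adjusted p = 0.0091). The G1 call was lost without WT library 1 (adjusted p = 0.065) or G1 library 2 (adjusted p = 0.072). One whole-valued RLTR13G copy, at chr13:67238767-67239014, was picked after its values were seen, since its mean count was below the minimum of 10 for naming. It had 14.3, 13.7 and 10.8 CPM in G4 libraries, 0, 2.66 and 1.10 CPM in G1 and 0, 1.04 and 0.96 CPM in WT. With 40 counts in G4 against 2 in WT, the ratio was 19.0 (95% counting interval 4.92 to 162).

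Among the other names, 5 copies met the rule for the largest rises. RLTR13B1 at chr15:9220466-9220764, 17983 bp from Lmbrd2, had 20.2, 23.0 and 34.4 CPM in G4 libraries, 0, 1.77 and 5.80 CPM in G1 and 4.17, 1.57 and 0 CPM in WT. It was low in all libraries but those of G4 (log2 fold change 3.58 ± 0.62, adjusted p = 4.2e-05), and the internal parts on either side, ERVB4_2-I_MM-int and RLTR45-int, rose by 5.08 and 4.75. A whole-valued RLTR13B1 copy at chr3:93713468-93713766, picked after its values were seen, behaved alike, with 44 counts in G4, 3 in G1 and 0 in WT. That is at least 13.9-fold higher in G4 than in WT, against a floor of 3 counts over the WT group, and the RLTR45-int pieces that adjoin it rose by 6.45 and 4.51 in fitted log2 fold change.

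RLTR13A3 at chr13:61864859-61865788, 3184 bp from Gm7240, had 55.0, 60.3 and 41.3 CPM in G4 libraries, 7.30, 6.20 and 12.1 CPM in G1 and 3.12, 7.31 and 8.64 CPM in WT. It is whole-valued, and G4 stood apart from both other groups (log2 fold change 3.0 ± 0.34, adjusted p = 9.7e-08). RLTR13E at chr12:104381999-104382479, whole-valued and in an intron of Serpina3m, a serine protease inhibitor gene, had 28.6, 21 and 22.5 CPM in G4 libraries, 2.09, 3.54 and 1.10 CPM in G1 and 4.17, 3.13 and 1.92 CPM in WT. The 7 other tested repeats of Serpina3m all rose too, with a median log2 fold change of 3.39 against 2.92 ± 0.47 for the copy (adjusted p = 1.8e-05), but none of them lay more than 10 kb away.

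RLTR13D3A1 at chr13:73651511-73652379 lay 1668 bp from Tert, the gene of the catalytic subunit of telomerase. It had 44.0, 46.6 and 61.1 CPM in G4 libraries, 6.26, 15.1 and 11 CPM in G1 and 11, 12.5 and 5.76 CPM in WT, so that G1 and WT overlapped and G4 lay above both. The log2 fold change was 2.35 ± 0.32 against WT (adjusted p = 1.6e-06), and the Lx6 LINE fragment that adjoins it on the other strand rose by 2.75. No tested repeat lay inside Tert, so the level of Tert itself could not be read here. A second RLTR13D3A1 copy, at chr13:67812101-67813030 in an intron of 4930525G20Rik, was picked after its values were seen for lying in the same part of the chromosome as 4 other tested copies. It had 103, 119 and 111 CPM in G4 libraries, 34.4, 36.3 and 26.4 CPM in G1 and 21.9, 32.4 and 25 CPM in WT (log2 fold change 2.08 ± 0.19, adjusted p = 2.6e-09). Of the 5 tested RLTR13 copies between 60 and 70 Mb of chromosome 13, 3 rose in G4 against WT and 0 fell, but of all 216 tested copies of that window 45.8% rose and 6.48% fell. The window was picked after the values were seen.

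RLTR13D5 at chr18:12548033-12549039, in an intron of the laminin gene Lama3 and whole-valued, was the called copy of a trophoblast enhancer name that rose. It had 81.3, 65.8 and 63.8 CPM in G4 libraries, 16.7, 27.5 and 24.2 CPM in G1 and 10.4, 11.5 and 12.5 CPM in WT, with no overlap among the 3 groups. The log2 fold change against WT was 2.60 ± 0.26 in G4 (adjusted p = 9.1e-09) and 0.99 ± 0.30 in G1 (adjusted p = 0.048, just inside the threshold). The RLTR13D5 copy at chr2:26894285-26895263, in an intron of the nucleolar protein gene Surf6, went the other way, with 7.69, 11.9 and 6.29 CPM in G4 libraries against 26.3, 11.5 and 19.2 CPM in WT (log2 fold change -1.12 ± 0.39, adjusted p = 0.021). The groups overlapped there, at 11.9 and 11.5 CPM. This second copy was picked after its values were seen, as the other call of the name.

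The RLTR13C2 copy whose sequence is shown above, at chr5:104836493-104836929, is whole-valued and had 20.9, 23.8 and 18.9 CPM in G4 libraries, 3.13, 7.97 and 11 CPM in G1 and 7.29, 6.27 and 4.80 CPM in WT. Every G4 library lay above every other library (log2 fold change 1.78 ± 0.42, adjusted p = 0.0013), and no other tested repeat lay in Zfp951. It was picked because its sequence could be read. The RLTR13G copy of known sequence that passed the filter, at chr1:89097185-89097380, had 9.89, 6.39 and 20.7 CPM in G4 libraries, 52.7, 39.9 and 51.7 CPM in G1 and 36.5, 34.6 and 35.5 CPM in WT. It fell by 1.5 ± 0.32 on the log2 scale in G4 against WT (adjusted p = 0.00039). The copy also lay in Sh3bp4, where all 6 other tested repeats fell in G4 against WT, with a median of -1.86. All of them lay within 10 kb of the copy.

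**Figure D4:**
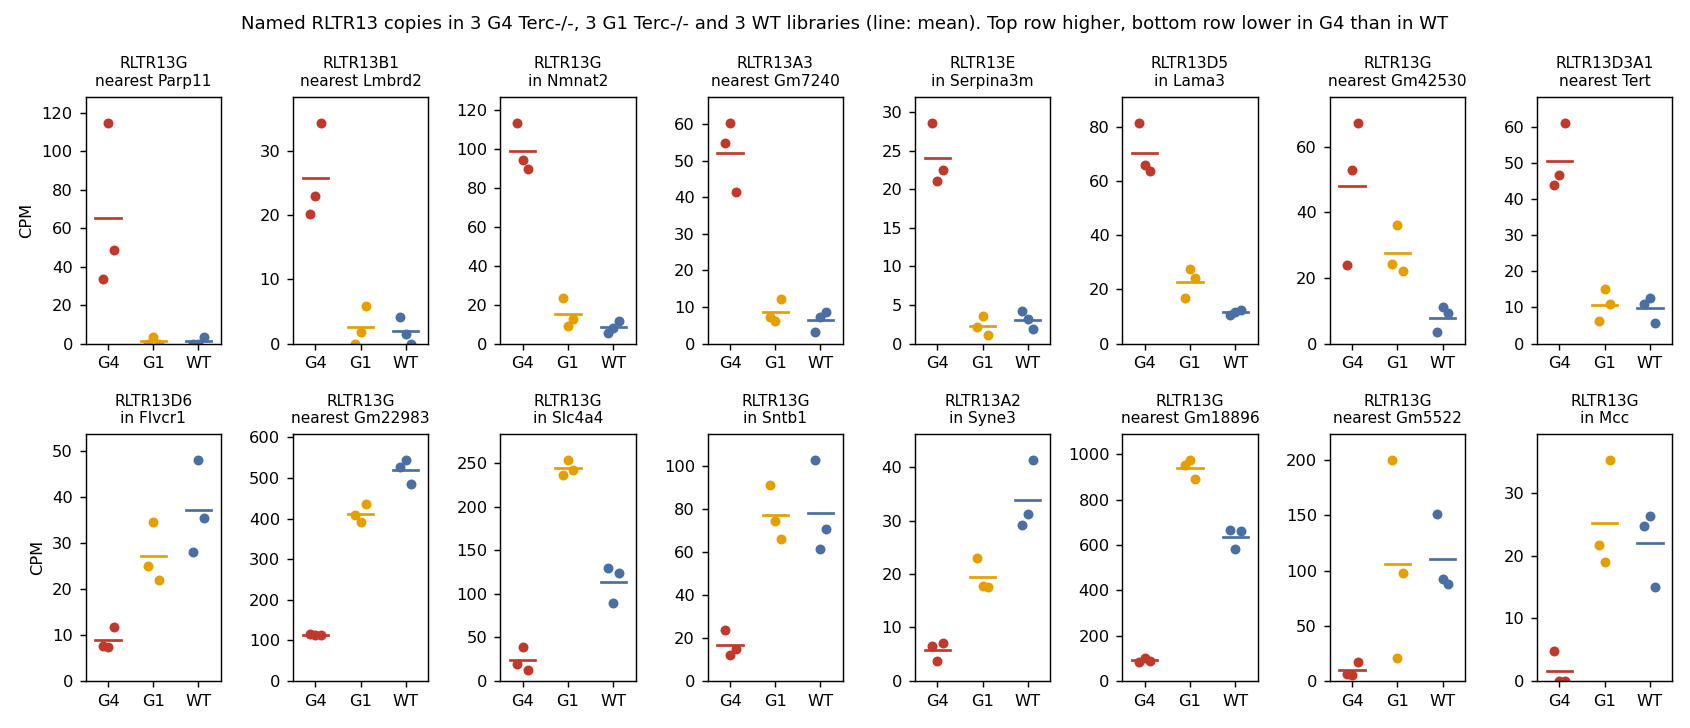
CPM of the 16 copies named by the rule for G4 Terc-/- against WT, 1 point per library with a line at the mean, for G4, G1 and WT from left to right. In the top row every G4 library lies above every WT library, with the RLTR13G copy nearest Parp11 at 33.4 to 115 CPM in G4, and in the bottom row every G4 library lies below every WT library.

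Of the largest falls in G4, 6 of 8 were RLTR13G copies. The copy at chr16:25522639-25522866 lay far from genes, 79366 bp from Gm18896. It had 83.5, 102 and 89.5 CPM in G4 libraries, 953, 973 and 891 CPM in G1 and 665, 584 and 660 CPM in WT. The 3 groups were separate, with log2 fold changes against WT of -2.79 ± 0.11 in G4 (adjusted p = 7.3e-17) and 0.56 ± 0.09 in G1 (adjusted p = 0.00017). All 4 kinds of ETn or MusD piece stood beside it, and in G4 against WT they fell by 2.54 to 2.87. The copy at chr4:124353468-124353695, 17787 bp from Gm22983, had 116, 112 and 114 CPM in G4 libraries, 410, 391 and 436 CPM in G1 and 527, 543 and 485 CPM in WT. It fell in G4 (log2 fold change -2.18 ± 0.11, adjusted p = 8.1e-15), and it was the 1 RLTR13 copy called lower in G1 than in WT (-0.33 ± 0.10, adjusted p = 0.033). That G1 call missed the threshold with library totals (adjusted p = 0.062), with a looser filter of 5 counts in all (adjusted p = 0.53), with a replicate block (adjusted p = 0.061) and without any of 4 libraries (WT 1, WT 2, G1 1 or G1 2, adjusted p = 0.061 to 0.14).

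The RLTR13G copy at chr5:89204192-89204419, in an intron of Slc4a4, a sodium bicarbonate transporter gene, moved in opposite directions in the 2 mutant groups. It had 19.8, 39.3 and 12.7 CPM in G4 libraries, 236, 253 and 243 CPM in G1 and 130, 89.0 and 123 CPM in WT. The groups did not overlap, and the log2 fold change against WT was -2.25 ± 0.24 in G4 (adjusted p = 2.3e-08) and 1.09 ± 0.18 in G1 (adjusted p = 0.00014). All 6 other tested repeats in Slc4a4 fell in G4 against WT, with a median of -2.85, but all lay within 10 kb of the copy. The copy at chr18:44739909-44740144, in an intron of Mcc, had 4.83, 0 and 0 CPM in G4 libraries, 21.6, 18.9 and 35.2 CPM in G1 and 24.7, 26.2 and 15.0 CPM in WT. It fell by 3.97 ± 0.63 on the log2 scale (adjusted p = 1.5e-05), its 5′ internal piece had a log2 fold change of -3.59 and its ERVB4_1C-LTR_Mm piece one of -3.79.

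The copy at chr15:55876429-55876592, in an intron of Sntb1, which encodes a syntrophin of the dystrophin complex, had 23.6, 12.2 and 14.7 CPM in G4 libraries, 91.2, 74.6 and 66.1 CPM in G1 and 103, 61.5 and 70.8 CPM in WT. G1 and WT overlapped and G4 lay below both (log2 fold change -2.28 ± 0.26, adjusted p = 7.3e-08). All 7 other tested repeats of Sntb1 fell, including the 2 more than 10 kb away. The copy at chr1:10817278-10817521, 10756 bp from Gm5522, had 6.27, 5.33 and 17.0 CPM in G4 libraries, 200, 20.8 and 98.0 CPM in G1 and 151, 92.1 and 87.4 CPM in WT. It fell by 3.45 ± 0.55 (adjusted p = 1.3e-05), whereas the MMETn-int piece 148 bp on its 5′ side rose by 3.58 (adjusted p = 2.1e-05).

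The remaining named falls were whole-valued copies of other names in introns. RLTR13A2 at chr12:104945248-104946161 in Syne3, the gene of the nuclear envelope protein nesprin-3, had 6.59, 3.65 and 7.19 CPM in G4 libraries, 23.0, 17.7 and 17.6 CPM in G1 and 29.2, 31.3 and 41.3 CPM in WT. It fell in G4 (log2 fold change -2.53 ± 0.35, adjusted p = 2.0e-06), and the other tested repeat of Syne3, more than 10 kb away, had a log2 fold change of -2.37. RLTR13D6 at chr1:191009737-191010684 in the heme exporter gene Flvcr1 had 7.69, 7.31 and 11.7 CPM in G4 libraries, 25, 34.6 and 22 CPM in G1 and 28.1, 48.0 and 35.5 CPM in WT (log2 fold change -2.04 ± 0.33, adjusted p = 1.5e-05). The other called RLTR13D6 copy, picked after its values were seen, was at chr12:83566881-83567272 in Zfyve1 and had 3.30, 0 and 4.49 CPM in G4 libraries against 5.21, 11.5 and 12.5 CPM in WT (log2 fold change -1.88 ± 0.66, adjusted p = 0.025). Both copies of the ESC enhancer name that were called thus fell in G4, while the sum of the name did not pass the test.

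In G1 Terc-/- against WT, the largest rises were of RLTR13G copies on the sex chromosomes. The copy at chrY:47720488-47720715 had 61.8, 97.2 and 24.5 CPM in G1 libraries against 2.09, 0 and 7.55 CPM in WT (log2 fold change 4.15 ± 0.61, adjusted p = 5.3e-05), and 10.6, 0 and 2.68 CPM in G4 libraries. The copy at chrX:16339742-16339977 had 25.4, 69.5 and 25.9 CPM in G1 libraries against 4.84, 4.37 and 0 CPM in WT (log2 fold change 3.70 ± 0.70, adjusted p = 0.001). In G4 libraries it had 1.84, 44.6 and 31.5 CPM, with 1 library within the WT range. Both copies are spread widely among libraries of one group, and neither is whole-valued.

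In G4 against G1, the copy at chrY:47720488-47720715 fell by 3.84 ± 0.58 (adjusted p = 1.1e-05). The copy at chr13:113723379-113723549, 36839 bp from Gm34586, had 8.02, 0 and 8.29 CPM in G4 libraries, 76.6, 77.8 and 36.1 CPM in G1 and 26.5, 6.49 and 28 CPM in WT. It was highest in G1, with a log2 fold change of -3.60 ± 0.49 in G4 against G1 (adjusted p = 2.1e-06). The other copies named by the rule in this comparison were already among those of G4 against WT: the RLTR13G copy nearest Parp11 (log2 fold change 5.51), RLTR13B1 nearest Lmbrd2 (3.39), RLTR13E in Serpina3m (3.29) and, as a fall, RLTR13G in Mcc (-4.15).

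Of the 5 copies with the most counts, those at chr16:25522639-25522866 and chr4:124353468-124353695 are described above, and the other 3 differed less between groups. RLTR13G at chr4:137386400-137386580, 686 bp from 2810405F17Rik, had 532, 275 and 575 CPM in G4 libraries, 530, 815 and 719 CPM in G1 and 495, 455 and 611 CPM in WT. Of the G4 libraries 2 lay inside the WT range and 1 below it (log2 fold change -0.18 ± 0.18, adjusted p = 0.45). RLTR13G at chr1:7481445-7481688 had 179, 343 and 225 CPM in G4, 432, 366 and 300 CPM in G1 and 274, 231 and 218 CPM in WT, with log2 fold changes against WT of 0.06 ± 0.17 in G4 (adjusted p = 0.82) and 0.61 ± 0.17 in G1 (adjusted p = 0.023). The same estimated count stood in 8 of 9 libraries for this copy and the RLTR13G copy at chr6:115829139-115829382, so the 2 copies are not separate measurements. Their means differed in G1 alone, at 366 CPM for the chr1 copy and 332 CPM for the chr6 copy. The chr6 copy was not called in G1 against WT (log2 fold change 0.46, adjusted p = 0.13). RLTR13C3 at chr1:150425830-150426815, in an intron of the nuclear pore gene Tpr, had 288, 263 and 263 CPM in G4 libraries, 350, 377 and 341 CPM in G1 and 402, 316 and 349 CPM in WT (log2 fold change -0.39 ± 0.11 in G4 against WT, adjusted p = 0.0045). With a looser filter of 5 counts in all, this call was lost (adjusted p = 0.16).

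RLTR13G copies and the ETn or MusD pieces beside them mostly moved together in G4 against WT. Across 25 pairs of an RLTR13G copy and a tested 3′ LTR, Pearson's r of the log2 fold changes was 0.75 and Spearman's rho 0.89, and where both were called (13 pairs) all 13 had the same direction. For the ERVB4_1C-LTR_Mm piece, r was 0.87 and rho 0.83 over 23 pairs, with 14 of 14 in the same direction. The ERVB4_1C-LTR_Mm pieces beside the copies at chr15:55876429-55876592 and chr13:8762251-8762421 had equal counts and an equal log2 fold change (-2.29). These pieces are thus not separate measurements, though both pairs are counted. For the 5′ internal piece, r was 0.71 and rho 0.68 over 32 pairs, with 17 of 19, and for the 3′ internal piece 0.51 and 0.73 over 18 pairs, with 12 of 13. These are descriptions across copies that share libraries and, for reads that span 2 pieces or fit several elements, the reads themselves. The 3 exceptions were the copies at chr1:10817278-10817521 and chr6:127520317-127520560, described above, and the copy at chrY:58544905-58545093, with a log2 fold change of -2.46 against 1.44 for its 5′ internal piece. In G1 against WT the relation was weaker, with rho of 0.64 for the 3′ internal piece, 0.46 for the 5′ internal piece and 0.34 for the 3′ LTR. For the ERVB4_1C-LTR_Mm piece rho was 0.07 and r was -0.17 over 23 pairs, so those changes hardly went together.

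**Figure D5:**
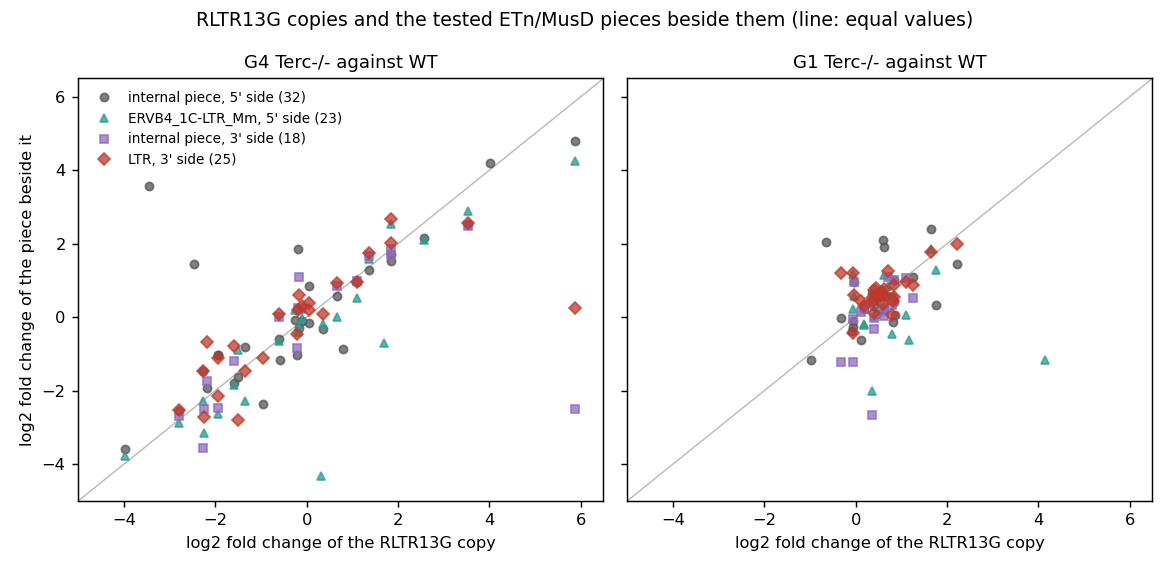
Log2 fold change of the ETn or MusD piece (y axis) against that of the RLTR13G copy beside it (x axis), with 1 point per pair of tested features, the kind of piece by colour and shape, and a line of equal values. In G4 Terc-/- against WT most pairs lie along the line, with Spearman's rho between 0.68 and 0.89, and in G1 Terc-/- against WT most lie in a cloud above 0.

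Other repeats of the gene that held a called copy moved the same way in part. Counting only repeats more than 10 kb from the copy, 5 RLTR13G copies called in G4 against WT had such repeats, and 6 of 11 of these were called in the direction of the copy and 0 in the other. For the other names, 4 called copies had 38 such repeats, of which 21 were called in the direction of the copy and 1 in the other, and most of them lay in 1 gene, C230088H06Rik, with 19 rises and 1 fall among 34 around its RLTR13D3 copy. Whether the RNA of these copies started in the LTR or was part of the transcript of the host gene was not tested.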

How the data were processed

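RNA of mouse ESCs was sequenced from TruSeq libraries made from total RNA. The submitters' processing notes name STAR 2.5.3a, featureCounts, FastQC 0.11.9 and mm10. The authors deposited 1 estimated count per transposable element copy and library, without normalization, and how shared reads were divided is not given in the sources used here. Columns named Control were taken as WT. The start of each copy is counted from 1.

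After rounding, features were kept by filterByExpr, with library sizes from the whole table and TMM factors. All 9 libraries entered 1 fit without a block in edgeR 4.0.16 (R 4.3.3, quasi-likelihood test, two-sided). Single copies (13278 tested) and subfamilies, the sums over a repeat name (853 tested), were fitted separately on the whole table, with Benjamini-Hochberg adjustment over all features of a level and contrast and calls at an adjusted p under 0.05. Each SE was obtained by dividing the log2 fold change by the root of its F statistic. CPM values are TMM scaled within a level, so that sums of copies and subfamily values differ slightly. Copies were placed against GENCODE M21 with bedtools 2.31.1, and sequences and tables were handled in Python 3.11.15.

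The members and lists were chosen with earlier results of these data known. Named copies had an adjusted p under 0.05, a mean of at least 10 counts and no overlap between the groups, and were the 8 largest rises and 8 largest falls in G4 against WT, the 3 largest of each in the other contrasts, and the 5 copies with the most counts. Copies outside this rule are marked in the text. Alternatives were DESeq2 1.42.0, other scalings, filters, fold rules, a replicate block, whole-valued copies and leaving out each library.

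On simulated counts for G4 against WT, 5.97%, 44.8% and 89.4% of changed copies were recovered at folds of 1.5, 2 and 4, over 13278 copies, and 83.6%, 95.5% and 100% of changed subfamilies, over 853. The simulated counts were independent and whole, with 200 changed features and 1 common dispersion per level (0.019 for copies and 0.0022 for subfamilies). Divided counts, and copies with a wider spread of their own, were not simulated. These shares therefore do not give the power for the RLTR13 copies. Counting intervals cover counting error only.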

Additional observations from a re-analysis of the deposited data

How the results depend on the processing

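Counts of called RLTR13 copies and subfamilies moved mainly with the copies and the fold required. With whole-valued copies alone, 11 copies were called in G4 against WT (41 with all), 1 in G1 against WT (14 with all) and 15 in G4 against G1 (47 with all), over 35 tested in place of 94. Of these 35 copies, 33 bore other names and 2 were RLTR13G, so the copy calls of RLTR13G could hardly be checked in this way. In G1 against WT the other names had 1 call of 33, against 1 of 52 with all copies. In the same setting 5 subfamilies were called in G4 against WT and 2 in G1 against WT, and 3 values reversed. RLTR13G went to 0.70 in G4 against WT, which was called (adjusted p = 0.00096). The other reversals were not called: RLTR13G at 0.15 in G4 against G1 (adjusted p = 0.47) and RLTR13C3 at 0.46 in G4 against WT (adjusted p = 0.24). Of the RLTR13C3 copies, 41 of 174 are whole-valued. The cause was not tested.

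In G1 against WT, 9 copies were called by the Wald test of DESeq2, 7 with a fold over 2 and an adjusted p under 0.05, and 9 with a fold over 2 and an unadjusted p. A fold over 2 with an adjusted p left 0 subfamilies in G4 against WT, 0 in G1 against WT and 2 in G4 against G1, and a fold over 1.5 with an unadjusted p left 3, 0 and 4, since RLTR13 subfamilies changed by small folds. Up to 10 kb from a gene, 525 copies counted as near, against 347 at 5 kb.

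Leaving out each library in turn gave 37 to 48 called copies in G4 against WT, 10 to 15 in G1 against WT and 43 to 55 in G4 against G1, and 7 to 9, 1 to 2 and 5 to 7 subfamilies. The 2 subfamilies in G1 against WT came without WT library 1. Over 53 named values, 368 of 388 values with one choice changed kept their direction and side of the threshold, 9 missed it, 8 newly passed it and 3 reversed; of 477 with a library left out, 462 kept both. In G4 against WT, 5 subfamilies that missed the threshold passed it without 1 library: RLTR13B2 (without WT 2, adjusted p = 0.017, or G1 3, 0.023), RLTR13B3 (WT 2, 0.049), RLTR13D1 (G4 3, 0.018), RLTR13D3 (G1 2, 0.041) and RLTR13D3A (G4 1, 0.046).

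With library totals, 286 subfamilies of the table were higher and 136 lower in G4 than in WT (197 and 200 with TMM), and 260 and 101 in G4 against G1 (166 and 196). Replicate numbers did not pair the libraries (correlation of same-numbered libraries between -0.02 and 0.02). With a replicate block, 41, 12 and 47 copies and 9, 1 and 7 subfamilies were called in the 3 comparisons, and RLTR13G had a log2 fold change of -0.58 in G4 against WT. Depth limits single copies most: 1198 of 1762 had under 5 counts in all.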
